A study of Homo sapiens with 3 samples.

Results

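The short arm of chromosome 1 was examined in 2 genome-wide site lists from NTERA2, a pluripotent human line derived from an embryonal carcinoma. SRA sites came from ChIRP-seq, in which biotinylated oligonucleotides complementary to the RNA recover it with the chromatin around it, and p68 sites came from ChIP-seq with an antibody against p68. The labels name no treatment, and both assays used the same line grown in the same medium, so the lists describe 1 line and 1 condition. The authors made each list from 3 biological replicates by keeping what the replicates had in common. Input chromatin is not analysed here. Sites were taken as members when they lay on chromosome 1 with a midpoint below 125 Mb of hg19. This rule gave 986 of the 7899 SRA sites (12.5%) and 1577 of the 14131 p68 sites (11.2%). The lists give a start and an end per site with no score or read count, so the depth behind a site and the spread between replicates are unknown.

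SRA, the steroid receptor RNA activator, is a long non-coding RNA that acts as a co-activator of nuclear receptors. It does not bind DNA by itself as a transcription factor does and reaches chromatin through proteins. The RNA helicase p68, encoded by DDX5, is one of its partners and also works in transcription and RNA processing. Trithorax group complexes methylate lysine 4 of histone H3 at active promoters, PRC2 methylates lysine 27 at silenced ones, and both marks together define bivalent domains of pluripotent cells. The study asked whether SRA is found at bivalent domains, and whether places with both SRA and p68 carry lysine 4 methylation more often than places with SRA only. Histone marks are not analysed here, and the lists were used to describe where the sites of the short arm lie and how near they are to each other.

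The limit at 125 Mb cut through no group of sites. The last SRA site before it was chr1:120200761-120206333 and the next one was chr1:144852297-144855132. For p68 the neighbours of the limit were chr1:121483901-121485602 and chr1:143991777-143992482. Sites are given by their hg19 positions with the first base counted as 1. No genes are given for them, since a genome or annotation of hg19 was not used here.

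The study's primers for ChIP-PCR and ChIRP-PCR include pairs for 4 loci on this arm. They are shown as places of the arm that were chosen for PCR. The loci are named for RUNX3, a transcription factor of the Runt family, OPRD1, the delta opioid receptor, SDC3, a syndecan of the cell surface, and BAI2 (ADGRB2 in RefSeq), an adhesion receptor. A RefSeq gene table of GRCh38.p14 places all 4 on chromosome 1. Forward and reverse primers are written 5′ to 3′ in lower case.
RUNX3 forward: aaaaggccaccagaaaaccc
RUNX3 reverse: ccatatggatccccagtccc
OPRD1 forward: atcgcattgccaagtgtacg
OPRD1 reverse: caggatgcgggtactgatga
SDC3 forward: tccctcaaggaaaggggaac
SDC3 reverse: ctttagggactgggctctcc
BAI2 forward: catgtcaccgcgtaatcctg
BAI2 reverse: agcccaatgtccccttactc
All 8 primers are 20 nt long, with a GC content of 50% to 60%. They were not placed among the sites, since no hg19 sequence was used.

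The sites of both lists were concentrated in a few blocks of the arm. The arm was divided into 125 windows of 1 Mb, of which 44 were without SRA and 17 without p68. The 10 windows richest in SRA sites held 352 of them (35.7%), and the 10 windows richest in p68 sites held 705 (44.7%). The median window held 3 SRA sites and 5 p68 sites, while the fullest held 57 and 116. SRA sites were found without p68 sites in 6 windows, and p68 sites without SRA sites in 33 windows, which held 123 p68 sites in all.

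The telomeric end was nearly free of SRA sites. Only 9 SRA sites lay in the first 24 Mb, against 112 p68 sites. The first SRA site of the arm was chr1:8771935-8773389, and 50 p68 sites lay before it. The longest stretch between neighbouring SRA sites followed directly, from 8773390 to 16937718 (8.16 Mb), and held 30 p68 sites. A further stretch of 7.17 Mb, from 17254523 to 24423842, held no SRA site and 36 p68 sites.

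Both lists changed at the end of that stretch. The window from 23 to 24 Mb held no SRA site and 4 p68 sites, and the next one held 19 and 41. From 24 to 49 Mb every window held at least 3 sites of each list, and this block carried 549 SRA sites (55.7% of the arm's) and 1074 p68 sites (68.1%). Its density was 22.0 SRA sites and 43.0 p68 sites per Mb, against 0.375 and 4.67 per Mb before it. The limits of this block and of the stretches named below were read off the window counts themselves, so these numbers are a description.

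Within the block the window fullest in p68 sites held few SRA sites, though other windows were rich in both lists. Of the 10 windows of the arm richest in SRA sites, 4 were also among the 10 richest in p68 sites. These started at 25, 26, 27 and 32 Mb, all within the block. For p68 the window starting at 25 Mb tied for the last of the 10 places with the one starting at 40 Mb. The window with the most p68 sites ran from 28 to 29 Mb and held 116 of them, but only 6 SRA sites. The next one, from 27 to 28 Mb, held 107 p68 sites and 31 SRA sites. The windows starting at 32, 26 and 36 Mb followed for p68, with 74, 70 and 69 sites, and held 30, 38 and 25 SRA sites. The last window of the block, from 48 to 49 Mb, was the reverse of the p68 peak. It held 38 SRA sites and 5 p68 sites.

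The window with the most SRA sites lay outside the block, from 54 to 55 Mb, with 57 SRA sites and 24 p68 sites. It belonged to a stretch from 52 to 60 Mb with 164 SRA and 99 p68 sites. The next windows in order of SRA sites started at 26 and 48 Mb with 38 each, at 37 Mb with 36, at 25 Mb with 34, at 53 Mb with 32, at 27 Mb with 31 and at 32 Mb with 30. Windows starting at 55 and 110 Mb held 28 each. Of these 10 windows, those starting at 37, 48, 54, 55 and 110 Mb held more SRA than p68 sites, and the window starting at 53 Mb held 32 of each.

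Farther toward the centromere both lists thinned out. The 10 Mb segments starting at 60, 70, 80, 90 and 100 Mb held 81, 19, 27, 29 and 8 SRA sites, and 91, 38, 26, 34 and 23 p68 sites. From 101594832 to 109438735 no SRA site occurred over 7.84 Mb, and 4 p68 sites lay in it. The longest stretch without p68, from 101759195 to 107910120 (6.15 Mb), fell inside this one, so that both lists were empty over it. The segment from 110 to 120 Mb was fuller again, with 93 SRA sites and 58 p68 sites.

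Over the 125 windows the numbers of SRA and p68 sites had a Spearman's rho of 0.674 and a Pearson's r of 0.598. Over the 75 windows with sites of both lists the values were 0.699 and 0.50. These are descriptions across windows that share chromatin, mappability and cell line, and they are not independent samples.

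**Figure D1:**
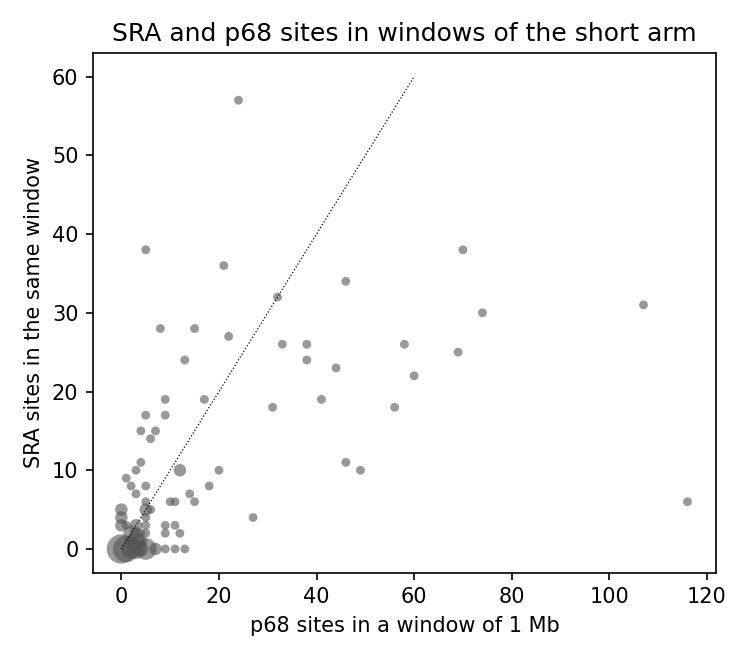
Number of SRA sites (y axis) against number of p68 sites (x axis) in each of 125 windows of 1 Mb of the short arm. The area of a point is proportional to the number of windows at that position, and the dotted line marks equal numbers. The window with 116 p68 sites holds 6 SRA sites, and the window with 57 SRA sites holds 24 p68 sites.

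The proportion of SRA to p68 sites changed along the arm. To count neighbouring sites only once, sites of a list with at most 10 kb between their edges were joined into groups, which gave 588 SRA groups and 871 p68 groups, or 0.675 SRA groups per p68 group. The arm was divided into 13 segments of 10 Mb, the last of which reaches past the limit of the arm. The proportion in each segment was set against that in the rest of the arm by a two-sided Fisher's exact test on groups, and p-values were adjusted over the segments by the Benjamini-Hochberg method. It differed in 6 of the 13 segments (46.2%) at a threshold of 0.05. With groups joined at 50 kb in place of 10 kb, 2 segments differed. Here and in the later Fisher's exact tests groups were taken as independent, although sites were concentrated in blocks of the arm. The p-values measure no spread between replicates.

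SRA groups were scarce relative to p68 groups in the first 3 segments. There was 1 SRA group against 56 p68 groups from 0 to 10 Mb (adjusted p = 5.0e-11, Fisher's exact test), 6 against 31 from 10 to 20 Mb (adjusted p = 0.00716) and 73 against 161 from 20 to 30 Mb (adjusted p = 0.00716). They were relatively frequent in 3 other segments. There were 111 SRA groups against 124 p68 groups from 40 to 50 Mb (adjusted p = 0.0484, Fisher's exact test), 86 against 92 from 50 to 60 Mb (adjusted p = 0.0484) and 68 against 49 from 110 to 120 Mb (adjusted p = 4.7e-04). From 30 to 40 Mb, where 114 SRA groups faced 177 p68 groups, the odds ratio was 0.943 (adjusted p = 0.746, Fisher's exact test).

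**Figure D2:**
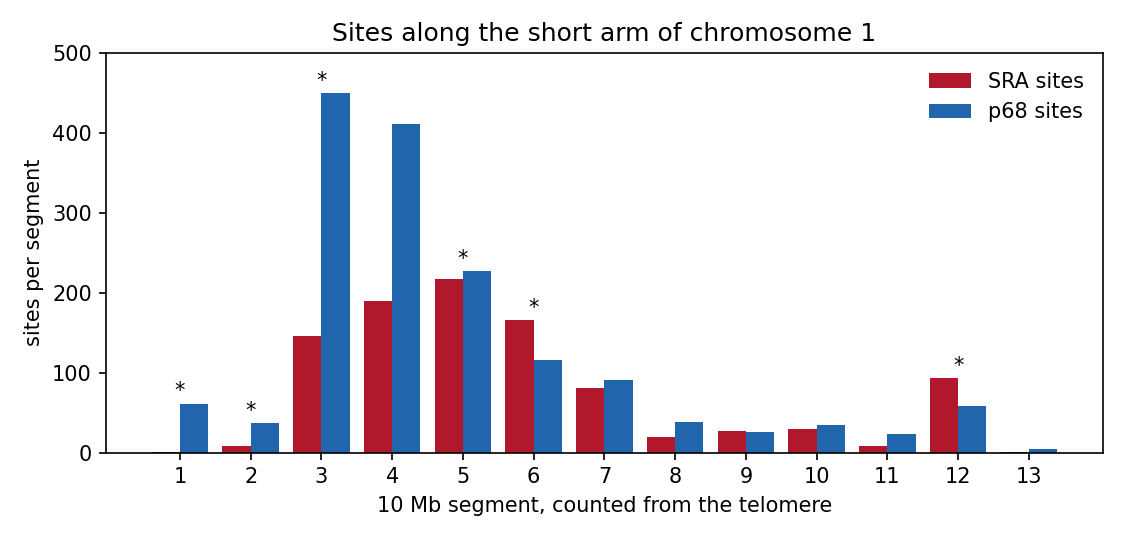
SRA sites (red) and p68 sites (blue) in each 10 Mb segment of the short arm, counted from the telomere; the y axis gives the number of sites. Asterisks mark segments whose proportion of SRA to p68 groups differed from the rest of the arm (Fisher's exact test, adjusted p under 0.05). Segment 3 holds 146 SRA and 450 p68 sites, and segment 12 holds 93 and 58.

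Set against the rest of chromosome 1, the short arm was the one richer in p68. The long arm had 803 SRA groups and 797 p68 groups, or 1.01 SRA groups per p68 group, against 0.675 on the short arm (odds ratio 0.670, adjusted p = 4.8e-08, Fisher's exact test, two-sided). On the other chromosomes together there were 4061 SRA and 9007 p68 groups, or 0.451 SRA groups per p68 group, which is less than on the short arm (odds ratio 1.5, adjusted p = 4.1e-12, Fisher's exact test). Since p68 was called at a stricter threshold than SRA, these proportions compare places and not the amounts of the 2 factors. Joined at 50 kb, the difference between the arms had an odds ratio of 0.810 and an adjusted p of 0.0504 (Fisher's exact test).

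Sites of the short arm were wide. Its SRA sites had a median width of 2932 bp (quartiles 2041 and 4175 bp) and covered 3.33 Mb. On the long arm the median was 2952 bp, and on the 13 other chromosomes with at least 100 SRA sites the medians ran from 1573 to 2722 bp. The p68 sites of the short arm had a median width of 1560 bp (quartiles 1119 and 2298 bp) and covered 2.98 Mb. This was the highest median among the p68 lists of the arms and of 21 other chromosomes, whose medians ran from 960 to 1504 bp, with 1433 bp on the long arm. Widths are compared as descriptions, since a list holds 1 width per site and no replicate.

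The widest SRA sites of the arm measured over 11 kb. The site chr1:33801903-33815234 (13332 bp) was the widest of the arm and second in the whole list. The fourth, chr1:33822720-33833934 (11215 bp), lay close to it, and both overlapped a p68 site, as did the fifth, chr1:54193276-54204397 (11122 bp). The second, chr1:48144294-48157027 (12734 bp), and the third, chr1:48020281-48032793 (12513 bp), lay in the SRA-rich window at 48 Mb, with the nearest p68 site 25077 and 23685 bp away.

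The 5 widest p68 sites of the arm were chr1:31553446-31565338 (11893 bp), chr1:33036030-33046252 (10223 bp), chr1:28835055-28844066 (9012 bp), chr1:39513430-39521594 (8165 bp) and chr1:31615453-31623282 (7830 bp). The nearest SRA site was 14816, 103290, 73684, 23928 and 31936 bp away, in this order. Most p68 sites of the arm had no SRA site close by (191 of 1577 had one within 500 bp). Whether these distances differ from those of other p68 sites was not tested.

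Many sites formed clusters. Of the 986 SRA sites, 397 (40.3%) were alone, 393 (39.9%) belonged to groups of 2 to 4 and 196 (19.9%) to 32 groups of 5 or more. Of the p68 sites, 617 (39.1%) were alone and 427 (27.1%) belonged to 50 groups of 5 or more. Such large groups held 19.8% of the SRA list and 12.5% of the p68 list on the long arm, and 7.28% and 5.71% on the other chromosomes. Of the large p68 groups of the short arm, 47 of 50 lay between 24 and 49 Mb, and of the large SRA groups 22 of 32.

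**Figure D3:**
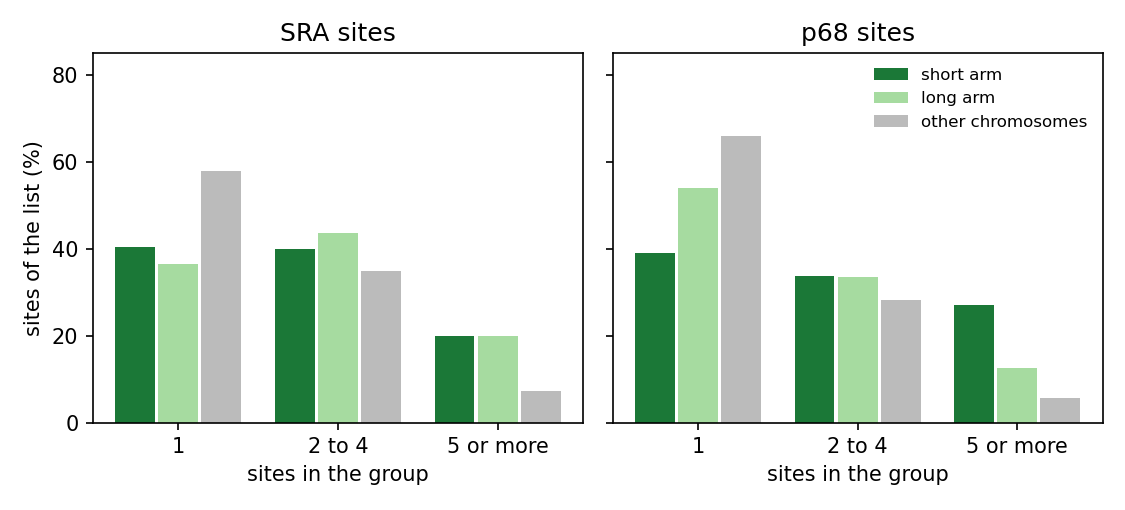
Percent of SRA sites (left) and p68 sites (right) that were alone, in groups of 2 to 4 and in groups of 5 or more sites (x axis), with sites joined at up to 10 kb; the y axis gives percent of the sites of the list in that region. Dark green bars are the short arm, light green bars the long arm and grey bars the other chromosomes. Groups of 5 or more hold 27.1% of short-arm p68 sites and 12.5% of long-arm p68 sites.

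The largest SRA groups differed in how many p68 sites they held. Groups of 10 sites occurred 3 times, and the most compact of them, chr1:54775831-54821842, was 46.0 kb long with 75.4% of its length covered by SRA sites. Its sites were 2170, 3591, 5729, 3512, 3242, 1699, 7355, 3515, 2055 and 1841 bp wide. No p68 site lay inside it, and the nearest ones were 20669 bp from the first of its sites and 49676 bp from the last.

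The second group of 10, chr1:62710373-62769186, was 58.8 kb long and 51.9% covered. It held 1 p68 site, chr1:62719623-62720939, which lay 422 bp from the third SRA site of the group, chr1:62717642-62719200. The other 9 SRA sites were from 2113 to 29108 bp away from the nearest p68 site.

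The third group of 10, chr1:26046889-26126423, spanned 79.5 kb and held 5 p68 sites. A p68 site lay within 500 bp of 5 of its SRA sites. The p68 sites were chr1:26045542-26047930 and chr1:26126394-26127339, which crossed the ends of the group, and chr1:26088025-26089962, chr1:26093266-26096271 and chr1:26102013-26103276 between them. A group of 9 SRA sites at chr1:45248789-45316835 held 6 p68 sites, with 6 of its SRA sites within 500 bp of one. A group of 8 at chr1:48144294-48193043 held none.

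The largest p68 groups also differed in how many SRA sites they held. A group of 25 p68 sites, chr1:28866568-28978629, covered 54.0% of 112.1 kb and held 1 SRA site, which was not within 500 bp of any of the 25. A group of 19, chr1:31538771-31646555, covered 64.5% of 107.8 kb and held none, though 1 of its p68 sites was within 500 bp of an SRA site. A group of 18, chr1:27243475-27324191, held 3 SRA sites. The fourth group, 17 p68 sites at chr1:33153838-33255199, held 8 SRA sites and had 8 p68 sites within 500 bp of one. Of the 50 large p68 groups, 26 had at least 1 SRA site inside, and of the 32 large SRA groups, 18 had a p68 site inside.

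Some neighbouring sites were separated by very short spaces. In the group at chr1:54775831-54821842 the spaces between neighbouring SRA sites included 22, 36, 43, 53 and 165 bp. Over the arm, 76 of 985 spaces between neighbouring SRA sites were shorter than 200 bp (7.72%), against 7.71% on the long arm and 3.68% on the other chromosomes. For p68 the shares were 4.19%, 2.45% and 1.44%. Joining sites less than 200 bp apart left 910 SRA sites, of which the median was 3091 bp wide and the widest 15188 bp. The lists hold no signal between sites, so whether such neighbours are 1 stretch of enrichment was not tested.

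SRA and p68 sites were then compared site by site. An SRA site was counted as shared when it overlapped a p68 site or lay no more than 500 bp from one, edge to edge. This held for 180 of the 986 SRA sites of the arm, or 18.3% (95% Wilson interval 16.0 to 20.8%), while it held for 11.6% of the SRA sites of the whole list. From the other side, 191 of 1577 p68 sites had an SRA site, or 12.1% (10.6 to 13.8%), against 6.55% of the whole p68 list. Of the 180 shared SRA sites, 156 had 1 p68 site within this distance and 24 had 2. Intervals cover counting error only, and neighbouring sites are not independent.

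Among the stretches compared here, sharing was most frequent where p68 sites were densest. From 24 to 30 Mb, where p68 had 72.7 sites per Mb, 58 of 146 SRA sites were shared (39.7%). From 52 to 60 Mb, with 12.4 p68 sites per Mb, it was 18 of 164 (11%), and from 110 to 120 Mb, where 58 p68 sites lay in 10 Mb, 6 of 93 (6.45%). Single windows did not all follow this order. From 31 to 32 Mb, with 58 p68 sites, 3 of 26 SRA sites were shared, and from 63 to 64 Mb, with 12 p68 sites, 4 of 10. Without the stretch from 24 to 30 Mb, the share on the arm was 14.5%.

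Sharing was therefore set against lists that roughly keep the density of the neighbourhood. In 1000 lists, each p68 site of the arm was moved by 100 kb to 1 Mb in either direction and kept within the arm. Each site was moved by its own distance and direction, so groups of p68 sites were not kept. The effect of this on the means and ranges of the moved lists was not tested. On average 153.4 SRA sites were then shared, with 131 to 175 in 95% of the lists. The observed 180 lay just above this range, at 1.17 times the mean, and 12 of the 1000 moved lists reached it. For p68 sites the observed 191 was also 1.17 times the mean of 163.1 (95% range 138 to 189).

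The excess was small and depended on the distance allowed. For an overlap of at least 1 bp, 149 SRA sites lay inside the range of 112 to 153. For gaps of up to 1, 2 and 5 kb, 205, 246 and 345 SRA sites were shared, which is 1.18, 1.16 and 1.11 times the mean of the moved lists and above their ranges. At 10 kb the 457 shared sites were inside the range of 397.9 to 467. With the p68 sites moved by only 10 kb to 50 kb, the value at 500 bp was 1.21.

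The share on the short arm was high, and its excess over moved lists was low. The excess was 1.17 on the short arm, 1.31 on the long arm, where 199 of 1402 SRA sites were shared, and 1.74 on the other chromosomes, where 538 of 5510 were shared. Among the 15 arms and chromosomes with at least 100 SRA sites, the short arm had the highest share, 18.3% (Wilson interval 16.0 to 20.8%). Chromosomes 21 and 19 were close to it, with 17.4% (12.8 to 23.1%) and 17.2% (11.5 to 24.9%), and the intervals overlapped. The lowest share was 2.71%, on chromosome 17. Only chromosome 1 was split into arms, and whether these shares differ was not tested. Among the same 15 the short arm had the second lowest excess, with chromosome 20 below it (11 shared SRA sites of 171, excess 1.06, 200 moved lists per chromosome). The difference between these excesses was not tested.

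Counted in groups, sharing was more frequent than on the other chromosomes. A p68 site lay within 500 bp of 138 of 588 SRA groups (23.5%) on the short arm and of 465 of 4061 (11.5%) on the other chromosomes (odds ratio 2.37, adjusted p = 9.9e-14, Fisher's exact test, two-sided). On the long arm it was 157 of 803 groups (19.6%), and the odds ratio of 1.26 did not pass the test (adjusted p = 0.0843, Fisher's exact test). When p68 sites up to 2 kb away were counted, the odds ratio between the arms was 1.38 (adjusted p = 0.00837, Fisher's exact test). The density of p68 sites, higher on the short arm, moves with these shares, and its part in them was not tested by the group comparison. SRA sites of the short arm were also less often alone than on the other chromosomes (40.3% against 57.9%) and wider (median 2932 against 2032.5 bp). The part of group size and width in the shares was not tested either.

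**Figure D4:**
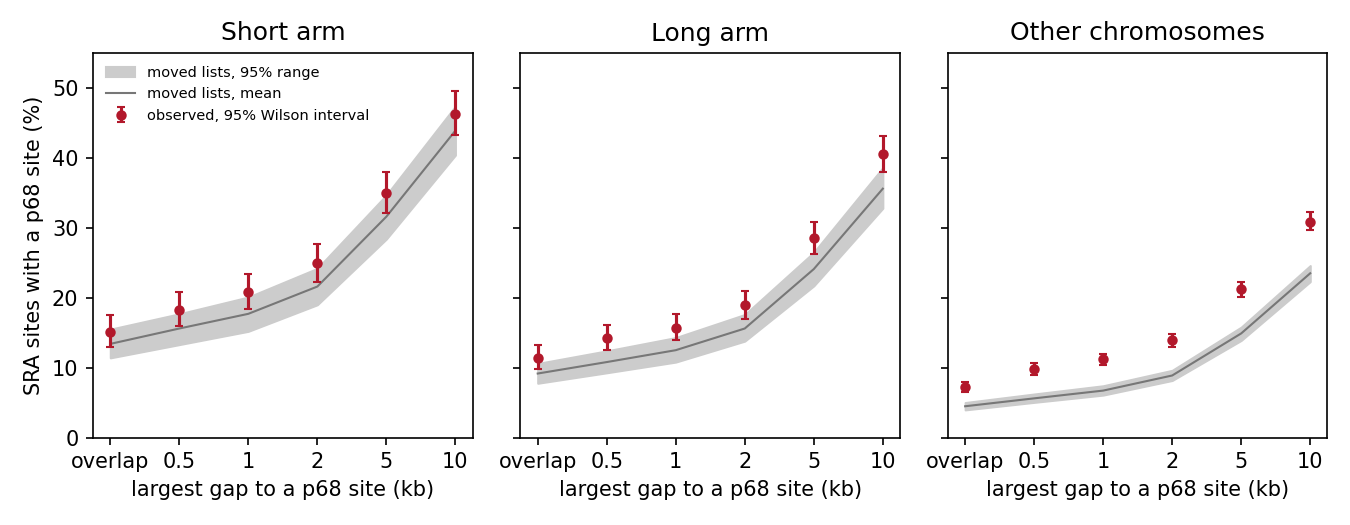
Share of SRA sites, in percent, that had a p68 site (y axis) for overlap and for gaps of up to 0.5 to 10 kb (x axis), on the short arm, the long arm and the other chromosomes. Red points are observed values with 95% Wilson intervals, and grey lines and bands are the mean and 95% range of the 1000 moved lists. At 0.5 kb the short arm lies at 18.3% against a mean of 15.6%, and the other chromosomes at 9.76% against 5.61%.

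By segment, the number of shared sites lay inside the range of the moved lists in 12 of 13 segments. From 20 to 30 Mb it was 58 against a mean of 49 (range 38 to 61). From 30 to 40 Mb it was 46 against 49.9 (38 to 61), the only segment with more than 1 shared site in which the number was below the mean. From 40 to 50 Mb it was 34 against 26.7 (17 to 37). From 80 to 90 Mb 3 of 27 SRA sites were shared against a mean of 0.391 (0 to 2), which is above the range but rests on 3 sites. The segments starting at 0 and 120 Mb held 1 SRA site each, with a range of 0 to 1, so their numbers could not fall outside it. Where the range began at 0, as in other segments with few SRA sites, a number could not fall below it.

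Most overlapping pairs of SRA and p68 sites crossed at an edge, and a smaller number lay one inside the other. There were 167 overlapping pairs, made of 149 SRA and 158 p68 sites, with a median overlap of 498 bp. The p68 site crossed the edge of the SRA site nearer the telomere in 68 pairs and the edge nearer the centromere in 69. It lay wholly inside the SRA site in 29 pairs, and in 1 pair the SRA site lay inside the p68 site. A median of 35.6% of the p68 site and 17.3% of the SRA site was in the overlap, and 23 pairs overlapped by 1000 bp or more. The arrangement of the pairs was not compared with the moved lists.

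The longest overlaps were mostly p68 sites held within an SRA site. The first was 2366 bp, the whole of the p68 site chr1:32236339-32238704, at one end of the SRA site chr1:32229888-32238756. The second was 1639 bp and was the pair with the SRA site inside, chr1:45186634-45188272 within the p68 site chr1:45186266-45188640. The next of the 5 longest were again p68 sites inside an SRA site. They were chr1:45308922-45310547 (1626 bp) in the group of 9 SRA sites named above, chr1:36193332-36194943 (1612 bp) and chr1:78441940-78443512 (1573 bp).

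The midpoints of p68 sites were counted by their distance from the nearest SRA site. Inside SRA sites there were 52, or 15.6 per Mb (95% exact Poisson interval 11.7 to 20.5), and in the first 500 bp outside there were 72, or 82.1 per Mb (64.2 to 103.3). From 500 bp to 2 kb the density was 41.7 per Mb, from 2 to 10 kb 31.6 and from 10 to 50 kb 23.9 per Mb. The moved lists gave 95.1 midpoints inside SRA sites on average (range 77 to 115) and 25 in the first 500 bp (16 to 36). The observed numbers were thus 0.547 and 2.88 times these means and outside both ranges.

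The same order of densities was found elsewhere. Inside SRA sites the observed number was 0.689 times the mean of the moved lists on the long arm and 0.701 times on the other chromosomes, and in the first 500 bp outside it was 3.15 and 3.62 times. Counted by midpoints no more than 500 bp from each other, 12 SRA sites of the short arm were shared, against 28.1 in the moved lists (18 to 38). A criterion on midpoints thus gave fewer shared sites than the moved lists, and a criterion on edges more. The subtraction of LacZ sites acted on the SRA list only, and its part in this arrangement was not tested.

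**Figure D5:**
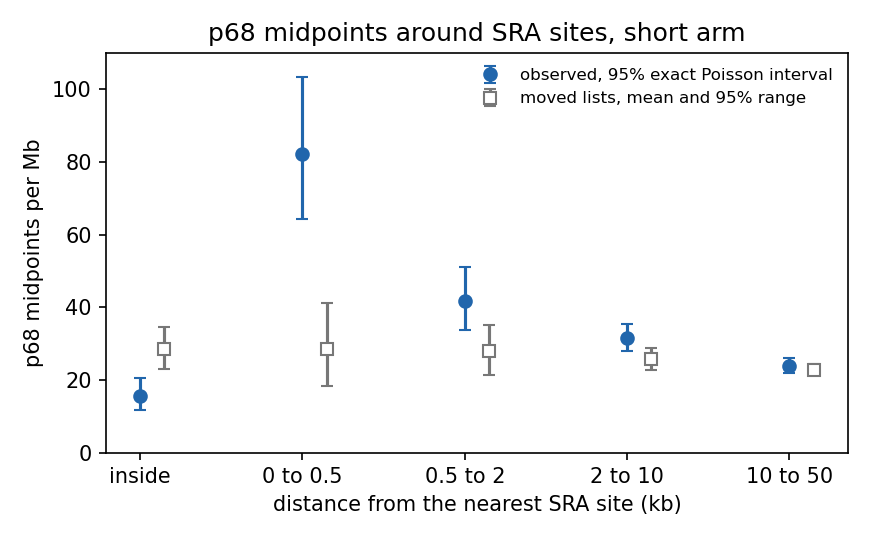
p68 midpoints per Mb (y axis) inside SRA sites of the short arm and at 0 to 50 kb from the nearest SRA site (x axis). Blue points are observed densities with 95% exact Poisson intervals, and open squares are the mean and 95% range of 1000 moved lists. The density inside is 15.6 per Mb and the density in the first 0.5 kb outside is 82.1 per Mb.

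The median width was 3023 bp for the 180 shared SRA sites and 2892 bp for the others. Shared p68 sites were narrower, with a median of 1278 bp against 1600 bp for p68 sites without SRA. By group size, 16.6% of lone SRA sites, 18.3% of those in groups of 2 to 4 and 21.4% of those in groups of 5 or more were shared. The distance from an SRA site to the nearest p68 site had a median of 13 kb on the short arm, with quartiles of 2.02 and 44.8 kb. It was 15.3 kb on the long arm and 26.5 kb on the other chromosomes.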

How the data were processed

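SRA ChIRP-seq and p68 ChIP-seq of NTERA2, each with 3 biological replicates, gave 1 deposited list of sites per assay, with chromosome, start and end in bp. Per the study's methods and the submitters' processing notes (CASAVA 1.8.2, MACS), the authors sequenced 50 bp single-end reads and used hg19. The aligner is not given in the sources used here. SAMtools removed duplicate reads and those with a mapping quality below 20. Peaks of each replicate were called by MACS 1.4.2, at a threshold of 1e-04 for SRA and 1e-05 for p68. Replicate lists were intersected with ChIPpeakAnno, and sites of a LacZ probe control were subtracted from the SRA list only, with bedtools. A site missing from 1 replicate is therefore absent, and depth is unknown.

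All deposited sites were used, with starts printed as the deposited start plus 1. Of the lists, 1 SRA and 9 p68 sites lay on sequences outside the main chromosomes and entered only the totals of the whole lists. Moved lists, Wilson and exact Poisson intervals and Fisher's exact tests were computed with scipy 1.17.1, numpy 2.4.6 and pandas 2.3.3 under Python 3.11.15. Figures were drawn with matplotlib 3.10.9. A p68 site that would have left the span of the arm's sites was moved the other way. The scripts were tested on simulated data. Comparisons of the arm with the long arm and the other chromosomes were adjusted over these 2 tests, and those of segments over 13. Sites printed singly are the fullest windows, largest groups, widest sites, longest overlaps and longest empty stretches, with the neighbours of the arm's limit. The sites and measures were chosen with earlier results of these data known. The alternatives tried were other rules for sharing, joining distances, segment lengths, distances moved, limits of the arm and sets of windows.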

Additional observations from a re-analysis of the deposited data

How the results depend on the processing

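The share of SRA sites with a p68 site, 18.3%, was 15.1% when overlap was required, 24.9% when p68 sites up to 2 kb away counted, 1.22% by midpoints within 500 bp, 23.5% for groups in place of sites and 14.5% without the stretch from 24 to 30 Mb. For p68 sites, 12.1% became 10.0%, 16.7% and 0.761% for overlap, 2 kb and midpoints. The excess over moved lists, 1.17, was 1.13 and inside the range for overlap and turned to 0.427 for midpoints. It stayed above its range at 1.16 to 1.28 in the other 7 alternatives. Where windows were left out, p68 sites could still be moved into them, although no SRA site remained there. This lowers the mean of the moved lists and raises the value. The 1.28 came from leaving out the 3 windows richest in SRA sites. Joining at 50 kb weakened the difference in SRA to p68 groups between the arms (odds ratio 0.810, adjusted p = 0.0504, Fisher's exact test), and left 2 of 13 segments differing in place of 6, with fewer groups to test. The difference in shared groups between the arms passed the test when sites were joined at 2 kb (odds ratio 1.32, adjusted p = 0.0241, Fisher's exact test) or with p68 up to 2 kb away (1.38, adjusted p = 0.00837). The cause was not tested. The share of SRA sites in groups of 5 or more, 19.9%, was 2.13% with joining at 2 kb and 58.3% at 50 kb, and 27.1% for p68 sites. In all, 26 of 43 alternatives kept both direction and call, stayed within the counting interval or, for segments, gave a similar number of differing segments. These segment counts had different totals and so different shares. They were 8 of 13 with joining at 2 kb, 6 of 25 for segments of 5 Mb and 4 of 7 for segments of 20 Mb. The alternatives without the stretch from 24 to 30 Mb and with SRA sites less than 200 bp apart joined were chosen after seeing the data. No replicate could be left out. No paired analysis was possible because each assay has 1 combined list. Depth is unknown, so a missing site may be absent or below the threshold.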
